A study of Mus musculus with 4 samples.

Results

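The 43 genes described here had less signal in both RNA pools of HP1γ-null embryos than in both wild-type pools, by at least 2-fold on average. They were taken from 11313 genes with a signal well above background on all 4 arrays, among 18322 genes named on the array. The criteria were both null values below both wild-type values and a mean log2 difference of at most -1. A total of 48 genes met them, or 0.424% of those measured, and 5 of these (Cbx3, Cxcl16, Tcf15, Cyp26b1 and Col6a4) were set aside by name. The remaining 43 make up 0.38%. In the opposite direction 284 genes met the mirrored criteria, or 2.51%. Because the differences themselves chose the genes, the levels below are a description and no test of them is given.

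The samples were total RNA from mVenus-positive cells sorted by flow cytometry from mouse genital ridges at embryonic day 11.5, which the labels call primordial germ cells (the cells that later form the gametes). The 2 wild-type pools carried the Blimp1-mVenus transgene, and the 2 HP1γ-null pools carried it together with a gene-trap allele on both chromosomes. Each pool held RNA from 5 to 6 embryos of 1 genotype, with about 500 to 3500 sorted cells per embryo, and was hybridised to 1 one-colour Agilent array. Strain and embryo sex are not given in the sources used here. HP1γ, encoded by Cbx3, is a chromatin protein that binds methylated histone H3 and is found at heterochromatin and also along transcribed genes. Blimp1 (Prdm1) is a transcriptional regulator needed to specify germ cells. Around this stage the genital ridge holds germ cells, somatic cells of the early gonad, blood vessels and tissue macrophages.

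Levels are log2 signals minus the 75th percentile of the same array, so that 0 is a fairly bright spot and 1 unit is a 2-fold change. Cbx3 itself read 5.89 and 5.72 in wild type and -1.24 and -2.78 in the null pools. A limma fit over 22438 probes, each with signal above background in both pools of a genotype, called 2 probes at an adjusted p under 0.05 (0.00891%), 1 of Cbx3 and 1 without a gene name, and neither belongs to these 43 genes. Per array, 53.3% to 63.3% of the spots were well above background. Of 10 defining germ cell markers named on the array, 9, 9 and 10 were well above background in wild-type pools 1 and 2 and null pool 1, and 3 were in null pool 2 (Dnd1, Prdm1 and Alpl), which goes against the label of that pool. The median of the 43 genes, the number meeting the criteria, the main list counts and the genes it moves by over 1.5 times are therefore also given without that pool. All 12 endothelial and all 12 macrophage markers were well above background on every array. In units of the array's 75th percentile, the germ cell markers above background summed to 9.98 and 4.88 in wild type and 33.0 and 1.94 in the null pools. The endothelial sums were 479 and 520 against 274 and 340, and the macrophage sums 317 and 361 against 323 and 286. The germ cell sum was thus below both others in every pool. The share of germ cells among the sorted cells was not measured.

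The 43 genes differed by -1.001 to -2.58 on the log2 scale, with a median of -1.12, which is 2.17-fold. The median over all measured genes was -0.03. Most lay close to the threshold, 30 of the 43 differing by less than 1.2 log2 units and 3 (Oit3, Slx1b and Hbb-bt) by 1.5 or more. Just inside it were Vcam1 (-1.005), Cd36 (-1.004) and Lat (-1.001). Just outside were Ldhal6b (-0.99), Rbp7 (-0.98) and Rnf122 (-0.98). The distance between the lower wild-type pool and the higher null pool ranged from 0.07 for Vcam1 to 1.51 for Oit3, with a median of 0.60, and it was wider than the difference within either genotype for 16 genes. The null pools differed from each other by a median of 0.76 over these genes and the wild-type pools by 0.24. Over all measured genes the same medians were 0.37 and 0.14.

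**Figure D1:**
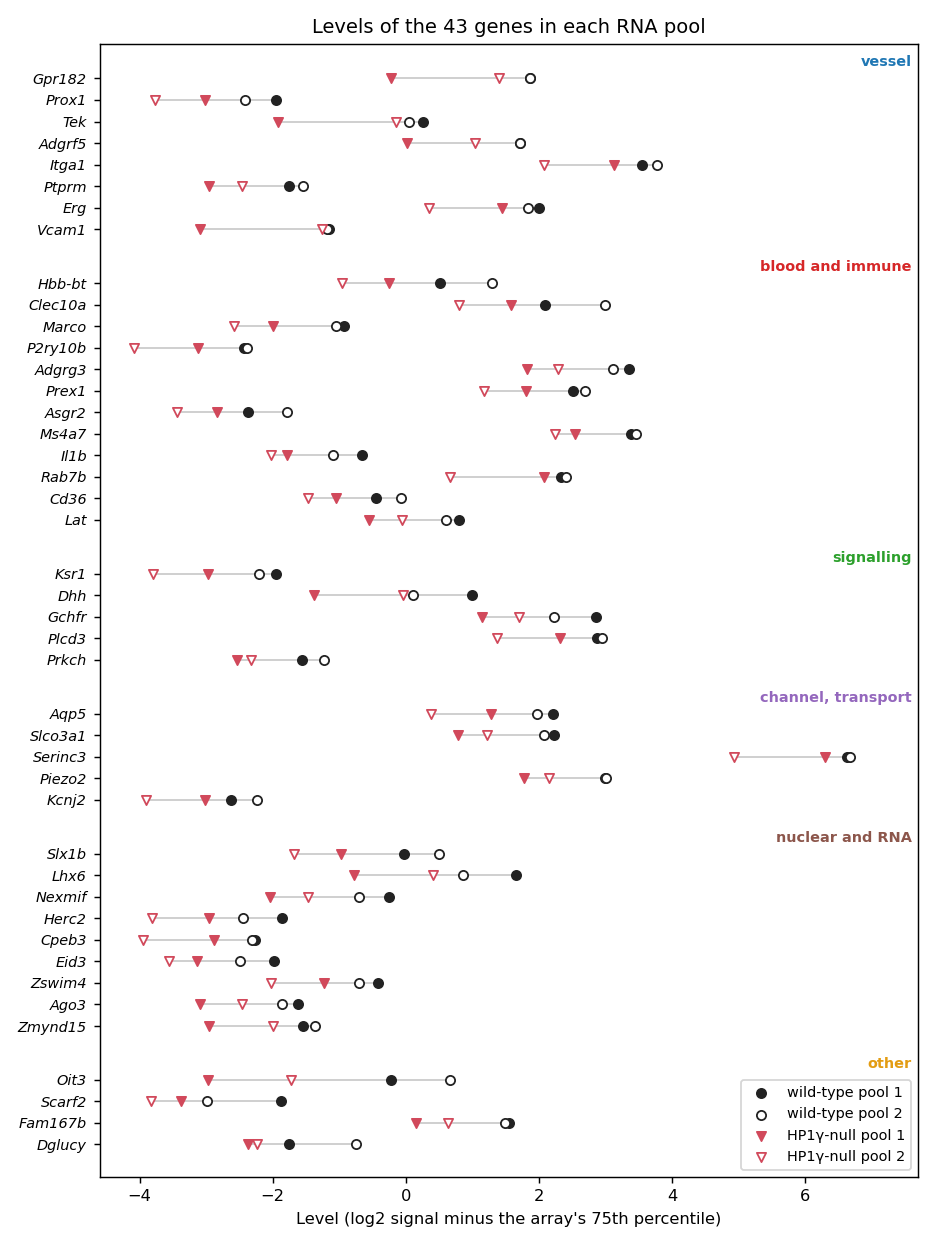
The level of each of the 43 genes (log2 signal minus the array's 75th percentile, horizontal axis) is drawn for the 2 wild-type pools (circles) and the 2 HP1γ-null pools (triangles), with genes grouped by role and sorted by mean difference. Both triangles lie left of both circles in every row, as the selection requires, and the distance is shortest for Vcam1 and longest for Oit3.

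By textbook role, a grouping made after the values were seen, 8 genes act in or at blood vessels, 12 in blood and immune cells, 5 in intracellular signalling or as ligands, 5 as channels, transporters or other membrane proteins, and 9 in the nucleus or on RNA. The other 4 were not placed in any of these groups. Only the 43 genes were grouped in this way, so no share over all measured genes stands beside these counts. They do not show an excess of any role. Of lists of pathway and cell type genes, drawn up with earlier results of these data known, the endothelial list and the macrophage and leukocyte list held 4 of the 43 genes each. That is 4 of 57 and 4 of 87 measured genes, beside 0.38% of all measured genes.

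Promoter windows from RefSeq (GRCm38.p6), running from 250 bases before to 50 after the annotated start, were available for 33 of the 43 genes. Those of 5 genes are shown because they represent the vessel, macrophage and globin genes. Capitals mark the motifs searched on both strands, namely the ETS core AGGAAG, the GATA site AGATAA, the TATA box TATAAA, the CCAAT box CCAAT, the GC box GGGCGG and the CACCC box CACCC, which can overlap. Tek lies at chr4:94739039-94739338 (plus strand), Itga1 at chr13:115101915-115102214 (minus strand), Marco at chr1:120504975-120505274 (minus strand), Il1b at chr2:129371090-129371389 (minus strand) and Hbb-bt at chr7:103813874-103814173 (minus strand). Each is written 5′ to 3′ on the strand of its gene.
Tek: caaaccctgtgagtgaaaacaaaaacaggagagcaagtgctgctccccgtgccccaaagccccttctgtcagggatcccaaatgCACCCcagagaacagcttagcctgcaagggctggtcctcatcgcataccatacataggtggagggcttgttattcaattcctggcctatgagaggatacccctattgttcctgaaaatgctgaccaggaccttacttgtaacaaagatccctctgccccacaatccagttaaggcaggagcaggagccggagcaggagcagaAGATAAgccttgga
Itga1: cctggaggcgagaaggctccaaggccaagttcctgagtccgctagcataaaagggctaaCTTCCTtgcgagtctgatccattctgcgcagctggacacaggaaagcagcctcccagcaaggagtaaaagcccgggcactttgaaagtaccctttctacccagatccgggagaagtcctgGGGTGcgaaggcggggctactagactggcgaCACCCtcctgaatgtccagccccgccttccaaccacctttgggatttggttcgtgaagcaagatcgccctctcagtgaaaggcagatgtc
Marco: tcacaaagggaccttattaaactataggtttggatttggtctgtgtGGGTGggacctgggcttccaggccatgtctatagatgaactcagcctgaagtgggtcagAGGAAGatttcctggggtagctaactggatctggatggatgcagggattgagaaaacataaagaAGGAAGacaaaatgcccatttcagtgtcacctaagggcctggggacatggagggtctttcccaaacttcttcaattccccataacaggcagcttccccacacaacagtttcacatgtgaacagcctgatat
Il1b: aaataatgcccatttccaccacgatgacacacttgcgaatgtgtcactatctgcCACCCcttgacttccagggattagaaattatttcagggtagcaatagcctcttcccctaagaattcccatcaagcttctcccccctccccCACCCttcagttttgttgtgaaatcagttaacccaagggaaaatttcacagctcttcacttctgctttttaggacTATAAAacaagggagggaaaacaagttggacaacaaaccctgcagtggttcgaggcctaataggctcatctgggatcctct
Hbb-bt: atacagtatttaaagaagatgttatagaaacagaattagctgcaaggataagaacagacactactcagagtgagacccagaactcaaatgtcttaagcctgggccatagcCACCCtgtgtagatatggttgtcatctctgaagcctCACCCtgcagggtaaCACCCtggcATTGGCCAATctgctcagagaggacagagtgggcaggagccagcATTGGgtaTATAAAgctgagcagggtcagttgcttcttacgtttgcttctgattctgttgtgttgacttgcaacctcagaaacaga

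The Hbb-bt window holds 3 CACCC boxes, 3 matches to CCAAT and a TATA box. The Marco window holds 2 ETS cores, and the Itga1 window 1. The Tek window holds the only GATA match among the 33 windows. A match is a description of the letters and not evidence of binding.

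Among the vessel genes, Tek encodes the angiopoietin receptor Tie2 of endothelial cells. Its levels were 0.26 and 0.05 in wild-type pools 1 and 2 and -1.93 and -0.15 in null pools 1 and 2. The difference of -1.19 was carried by null pool 1, and without that pool it was -0.30. Gpr182, a receptor found on endothelium, had levels of 1.87 and 1.86 in wild type and -0.22 and 1.40 in the null pools. The same pool was low again, and without it the difference of Gpr182 was -0.46 in place of -1.27. Vcam1, an adhesion molecule through which vessels and stroma hold leukocytes, read -1.15 and -1.18 in wild type and -3.09 and -1.25 in the null pools. Without null pool 1 it differed by -0.08, so its place among the 43 genes rests on that pool. Adgrf5, an adhesion G protein-coupled receptor, read 1.71 in each wild-type pool and 0.01 and 1.04 in the null pools, a difference of -1.19 and of -0.67 without null pool 1.

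Erg, an ETS transcription factor that maintains endothelial identity, showed the reverse order of the null pools. It read 2.00 and 1.83 in wild type, 1.44 in null pool 1 and 0.35 in null pool 2. The difference of -1.02 was -0.47 without null pool 2. Itga1, the collagen-binding integrin subunit, read 3.55 and 3.77 in wild type and 3.12 and 2.07 in the null pools. It too was lowest in null pool 2, and differed by -1.06 with that pool and by -0.54 without it. Both further Itga1 probes were lower without overlap, by -0.63 and -0.53. Prox1, the transcription factor that specifies lymphatic endothelium, read -1.94 and -2.42 in wild type and -3.01 and -3.77 in the null pools. Ptprm, a receptor tyrosine phosphatase of cell contacts, read -1.76 and -1.55 in wild type and -2.95 and -2.46 in the null pools. Null pool 1 was the lower of the null pools for 5 of these 8 genes and null pool 2 for 3.

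Of 57 genes measured on the endothelial list, 43 were lower in both null pools without overlap and 1 was higher, with a median difference of -0.56. Over all measured genes 21.4% were lower without overlap and 15.9% higher. Without null pool 2, 51 of the 57 were below both wild-type pools, with a median of -0.73, and 41.3% of all measured genes were. The 4 vessel genes on the list (Gpr182, Tek, Erg and Vcam1) were its 4 lowest by difference, which follows from their selection. Next came Lyve1 (-0.92), a hyaluronan receptor of lymphatic and other endothelium, Mmrn1 (-0.90), S1pr1 (-0.88) and Clec14a (-0.86). Of the 12 defining endothelial markers 11 were lower without overlap, all but Tie1, and none was dim. Their summed signal, in units of the array's 75th percentile, was 479 and 520 in wild type and 274 and 340 in the null pools. In pooled cells, fewer endothelial cells and less RNA per endothelial cell cannot be told apart, and the part of these markers in the results for single genes was not tested.

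**Figure D2:**
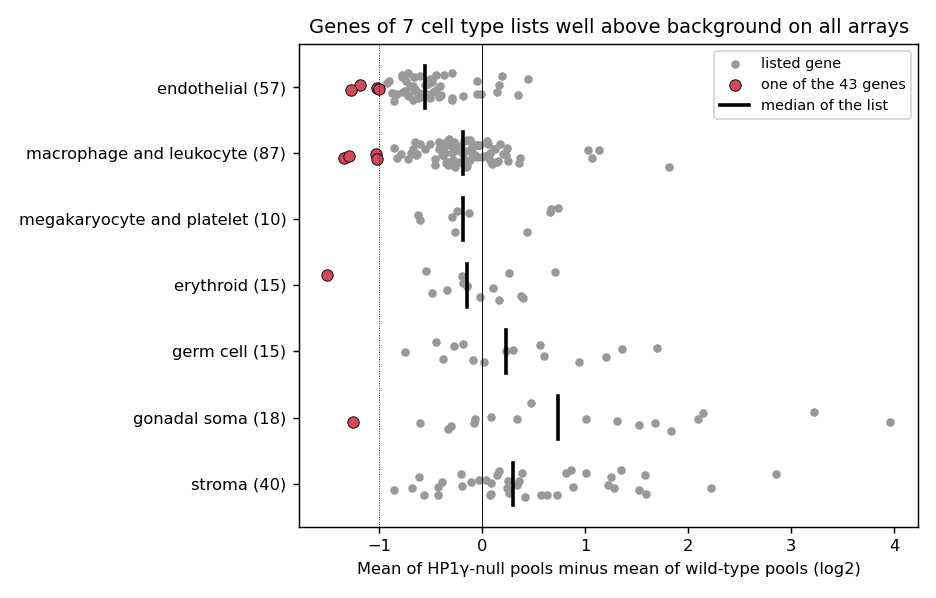
The mean log2 difference of null minus wild type (horizontal axis) is drawn for each measured gene of 7 cell type lists, with the number of genes in brackets, the selected genes in red and a bar at each list's median. The endothelial list sits left of 0 with a median of -0.56, the macrophage list is centred at -0.19, and the gonadal somatic list lies to the right at 0.74.

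Of the 12 blood and immune genes, 10 were lowest in null pool 2. Clec10a, a galactose-binding lectin of macrophages, had levels of 2.09 and 2.99 in wild type and 1.58 and 0.80 in the null pools. The difference was -1.35, and -0.90 without wild-type pool 2. Marco, a scavenger receptor, read -0.93 and -1.04 in wild type and -1.99 and -2.58 in the null pools. Whichever array was left out, Marco differed by at least 2-fold, with a range of -1.005 to -1.59. With normexp background correction its difference was -0.61. Ms4a7, a membrane protein of tissue macrophages, read 3.39 and 3.46 in wild type and 2.54 and 2.25 in the null pools, and a second probe of the gene gave 3.02, 3.08, 2.15 and 1.79 in the same order. Il1b, the gene of a secreted inflammatory cytokine, read -0.66 and -1.10 in wild type and -1.78 and -2.03 in the null pools. For these last 3 genes the pools of a genotype lay within 0.59 of each other.

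Asgr2, a subunit of the asialoglycoprotein receptor, is near neighbour to Clec10a on chromosome 11, with 1 protein-coding gene between them in RefSeq. Its levels were -2.37 and -1.79 in wild type and -2.83 and -3.44 in the null pools. Cd36, a scavenger receptor and fatty acid carrier of macrophages and small vessels, read -0.45 and -0.07 against -1.05 and -1.47. Rab7b, a small GTPase of late endosomes, read 2.33 and 2.41 against 2.07 and 0.66. Its difference of -1.005 was -0.30 without null pool 2. Adgrg3, an adhesion G protein-coupled receptor known from granulocytes, read 3.36 and 3.12 in wild type and 1.82 and 2.29 in the null pools. Lat, the adaptor of T cell receptor signalling, read 0.80 and 0.60 against -0.55 and -0.05. Adgrg3 and Lat were the exceptions whose lower null pool was pool 1. Prex1, an activator of Rac in leukocytes, differed by -1.11. P2ry10b, a G protein-coupled receptor, read -2.42 and -2.38 against -3.12 and -4.08, and differed by -0.72 without null pool 2.

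Of 87 genes measured on the macrophage and leukocyte list, 31 (35.6%) were lower in both null pools without overlap and 5 higher. Over all measured genes 21.4% were lower and 15.9% higher. The median difference of the list was -0.19. Without null pool 2, 39 (44.8%) were below both wild-type pools, close to the 41.3% of all measured genes. A further 15 were above, and the median was -0.11. Clec10a, Marco, Ms4a7 and Il1b had its 4 lowest differences, which follows from their selection. Next came the mast cell protease gene Cpa3 (-0.86), Timd4 (-0.83) and F13a1 (-0.79). Of the 12 defining markers 3 were lower without overlap (Adgre1, Tyrobp and C1qc), by -0.38, -0.18 and -0.16, and none was dim. Their summed signal was 317 and 361 in wild type and 323 and 286 in the null pools, so the ranges of the genotypes overlapped. The macrophage marker Csf1r, the receptor for colony stimulating factor, read 3.81 and 4.24 in wild type and 3.89 and 4.00 in the null pools.

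Hbb-bt encodes an adult beta globin. By the probe with the highest mean it read 0.51 and 1.30 in wild type and -0.25 and -0.96 in the null pools, a difference of -1.51. All 3 of its further probes were lower without overlap, by -0.97, -1.11 and -1.30. The adult beta globin genes are near-identical copies, so the probes may read more than 1 of them. The embryonic globin gene Hbb-y read -0.98 and -1.15 in wild type and -1.82 and 0.00 in the null pools, and Hbb-bh1 -0.95 and -2.01 against -1.85 and -1.16, with overlap in each case. Of 15 erythroid genes measured, Hbb-bt and Fech were the 2 lower without overlap (13.3%, beside 21.4% of all measured genes). A further 4 were higher, beside 15.9% of all, and the median was -0.15. Without null pool 2, 7 were below both wild-type pools (46.7%, beside 41.3% of all) and 4 above, with a median of -0.20. The erythroid transcription factor genes Klf1 and Gata1 were not well above background on any array, and the summed signal of the named markers was 3.27 and 3.85 in wild type and 2.59 and 4.44 in the null pools.

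Oit3, which the grouping placed in neither the vessel nor the blood group, had the largest difference of the 43. It encodes a protein with a zona pellucida domain known mainly from liver. Its levels were -0.22 and 0.67 in wild type and -2.98 and -1.73 in the null pools. The means were 0.22 ± 0.63 and -2.35 ± 0.88 (SD, n = 2 each), a difference of -2.58 or 5.97-fold, and the groups stood 1.51 apart. Without any single array the difference lay between -1.95 and -3.20. Normexp gave -1.45. The level in null pool 1 lay 0.58 above the lowest level well above background on that array. On no array was the further Oit3 probe well above background, so it gives no second reading. Scarf2, a scavenger receptor family member, read -1.88 and -2.98 in wild type and -3.38 and -3.83 in the null pools. Fam167b, a gene of little known function, had closer pools, at 1.54 and 1.49 against 0.15 and 0.63. Dglucy, a mitochondrial enzyme of D-glutamate breakdown, read -1.75 and -0.75 against -2.36 and -2.23. In Scarf2 and Dglucy the wild-type pools lay over 1 unit apart. Scarf2 differed by -1.17, and by -0.62 without wild-type pool 1. Dglucy differed by -1.05, and by -0.55 without wild-type pool 2.

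Dhh, the hedgehog ligand that supporting cells of the testis make later in development, read 0.99 and 0.10 in wild type and -1.38 and -0.04 in the null pools. The wild-type pools were as far apart as 0.89, and the difference of -1.25 was -0.59 without null pool 1 and -0.81 without wild-type pool 1. Dhh was the only 1 of 18 measured gonadal somatic genes among the 43. Of that list 10 were higher in both null pools without overlap, beside 15.9% of all measured genes. A further 2 (11.1%) were lower, beside 21.4% of all. The median of the list was 0.74, and 0.58 without null pool 2. The stromal list, which holds none of the 43, had a median of 0.30 that was -0.48 without null pool 2. The other signalling genes were Ksr1, a scaffold of the MAP kinase cascade (-1.30), Gchfr, the feedback regulator of GTP cyclohydrolase (-1.12), Plcd3, a phospholipase C (-1.07), and Prkch, a protein kinase C (-1.04). Gchfr read 2.85 and 2.23 against 1.14 and 1.71, and Plcd3 2.87 and 2.95 against 2.32 and 1.37. Without null pool 2 the difference of Plcd3 was -0.59.

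Among membrane proteins, Piezo2, a mechanically gated ion channel, had close replicates, at 3.00 and 3.01 in wild type and 1.78 and 2.15 in the null pools. A second Piezo2 probe differed by -0.67 without overlap. Slco3a1, an organic anion transporter, read 2.23 and 2.08 against 0.78 and 1.23. In both genes null pool 1 was the lower. Aqp5, a water channel, read 2.20 and 1.97 against 1.28 and 0.38. Serinc3, a membrane protein that can restrict retroviruses, read 6.63 and 6.68 in wild type and 6.29 and 4.93 in the null pools. Its difference of -1.04 was -0.36 without null pool 2, and 2 further probes were lower by -0.93 and -0.84 without overlap. Without the same pool Aqp5 differed by -0.81. The potassium channel gene Kcnj2 differed by -1.03 at levels of -2.24 and below, by -0.59 without null pool 2 and by -0.27 with normexp background correction.

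In the nuclear and RNA group, Slx1b encodes a subunit of a nuclease that cuts branched DNA. It read -0.02 and 0.50 in wild type and -0.97 and -1.67 in the null pools, a difference of -1.56, and a further probe differed by -0.82 without overlap. Lhx6, a LIM homeobox transcription factor, read 1.65 and 0.86 in wild type against -0.78 and 0.41. It differed by -1.44, and by -0.85 without null pool 1. Nexmif, an X-linked gene needed for neuronal development, read -0.26 and -0.71 against -2.05 and -1.47, and both of its further probes were lower without overlap, by -1.26 and -1.53. Zmynd15, a repressor needed in haploid male germ cells, differed by -1.02 and by -0.54 without null pool 1. Herc2, a large ubiquitin ligase, read -1.86 and -2.45 against -2.96 and -3.81, but by another probe it differed by -0.25 and overlapped. Ago3, an Argonaute protein of small RNA silencing, and Cpeb3, an RNA-binding regulator of translation, differed by -1.04 and -1.12. Eid3 differed by -1.12 and Zswim4 by -1.07. Without null pool 2 the difference of Cpeb3 was -0.58, that of Zswim4 -0.67 and that of Herc2 -0.81. The germ cell list says little here, because 15 of its 39 named genes were well above background on all arrays and core genes such as Dppa3 and Ddx4, dim in null pool 2, could not be chosen. Of those 15, 2 (Stra8 and Tdrd7) were lower in both null pools without overlap, by -0.38 and -0.28, while 5 were higher. Over all measured genes 21.4% were lower and 15.9% higher. Without null pool 2, 4 of the 15 were below both wild-type pools (26.7%, beside 41.3% of all) and 10 above, with a median of 0.59.

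**Figure D3:**
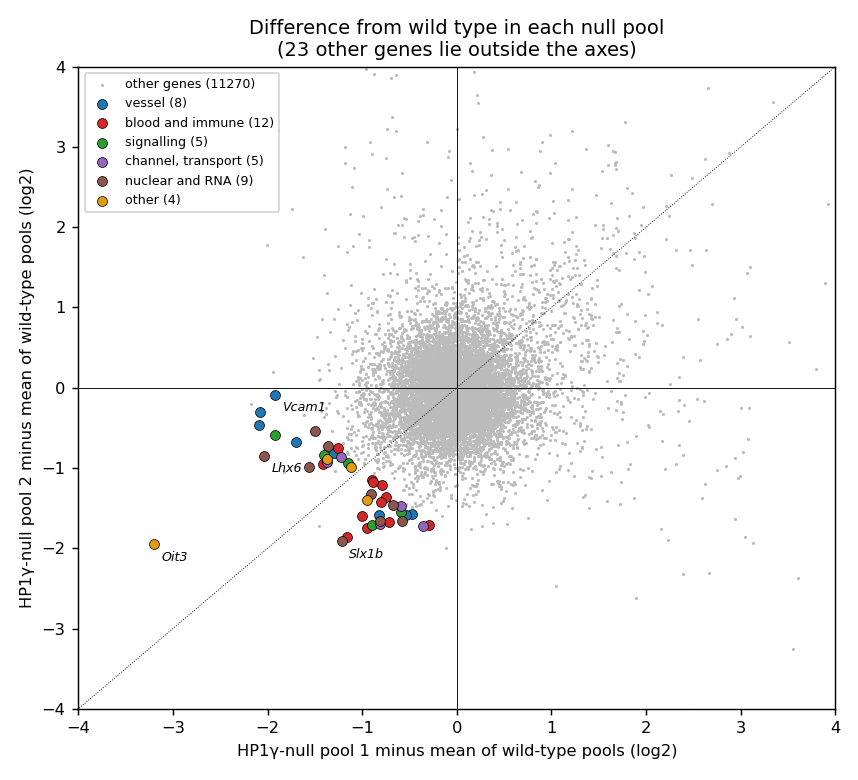
Each point is a gene, placed by its log2 difference from the wild-type mean in null pool 1 (horizontal axis) and in null pool 2 (vertical axis), with the 43 genes coloured by role and 11270 other measured genes in grey. The selected genes spread along both sides of the dotted line of equal difference, from Vcam1, low in null pool 1, to genes low mainly in null pool 2, and Oit3 stands apart from the rest.

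Further probes gave a second reading for some of the genes. Of 20 further probes for 15 genes, 13 (for 8 genes) were well above background on all arrays. All 13 had a lower mean in the null pools, 12 without overlap, and 5 differed by at least 2-fold. By the probe chosen for each gene, 21.4% of all measured genes were lower without overlap. The genes were selected for low null values in the same RNA, so lower readings by their further probes follow in part from the selection. These probes come from the same arrays and are not an independent measurement of the pools. The probe that overlapped was that of Herc2.

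Which null pool was lower varied from gene to gene, null pool 1 for 19 and null pool 2 for 24, and the null pools were over 1 log2 unit apart for 12 genes. Without null pool 1 the median difference was -1.33 and 25 of the 43 genes still met the criteria. Without null pool 2 the median was -1.005 and 22 did. All 43 means stayed below 0 in each case, which the selection fixes in advance. Oit3, Slx1b, Hbb-bt and Marco differed by at least 2-fold whichever array was left out. Under normexp correction Oit3, Slx1b and Hbb-bt still did, and Marco differed by -0.61. With 1 array left out, 6 genes (Gpr182, Tek, Serinc3, Erg, Rab7b and Vcam1) came within 0.5 of wild type. With the other null pool left out in turn, the differences of these genes and of Dhh were larger. Without null pool 2 they were -2.09 for Gpr182, -2.08 for Tek, -1.92 for Dhh and -1.925 for Vcam1, and without null pool 1 they were -1.57 for Erg, -1.71 for Rab7b and -1.73 for Serinc3.

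Many of the 43 were dim. Their wild-type levels ran from -2.43 to 6.65 with a median of 0.22, below the median of 0.77 for all measured genes, and 15 (34.9%) had a wild-type level under -1, as had 24.1% of all measured genes. The lowest level well above background was -3.68 and -4.11 in wild type, -3.56 in null pool 1 and -4.84 in null pool 2. In null pool 1, 14 of the 43 lay within 1 unit of that floor, namely Ksr1, Herc2, Prox1, P2ry10b, Scarf2, Cpeb3, Eid3, Asgr2, Ptprm, Ago3, Kcnj2, Zmynd15, Vcam1 and Oit3. Their values there depend on small signals. Ksr1, for example, had processed signals of 48.6 and 47.3 intensity units in wild type and 15.9 and 21.0 in the null pools. The arrays' 75th percentiles were 188 and 219 in wild type and 125 and 291 in the null pools. In signals not scaled between arrays, 37 of the 43 genes still had both null values below both wild-type values. Gpr182, Tek, Dhh, Vcam1, Zmynd15 and Dglucy did not, the signal of null pool 2 being within or above the wild-type range. Much of the count of 37 follows from the selection on scaled values. The share over all measured genes was not counted in unscaled signals. There the median difference of all tested probes was -0.15, beside -0.06 with scaling. A further 26 genes met the difference criteria and were well above background in wild type but not in null pool 1 (16 genes) or in either null pool (10 genes). They are outside the 43.

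With quantile normalization 40 of the 43 genes met the criteria again, and with normexp correction 15. The deposited value table gave all 43, but it holds the same processed intensities rounded, so that count is no separate check. Normexp changed the input signal, the background method and an added offset together, so the move cannot be assigned to 1 of them. The median difference with normexp was -0.75, and 22 of the 43 genes had a difference over 1.5 times smaller, with a range over all 43 of -0.20 for Vcam1 to -1.45 for Oit3. Scaling to spiked-in control RNA moved the median of all tested probes from -0.06 to -0.60, and 794 genes then met the criteria. Under that scaling, which moves all probes of an array by the same amount, the 43 genes had a median of -1.66.

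**Figure D4:**
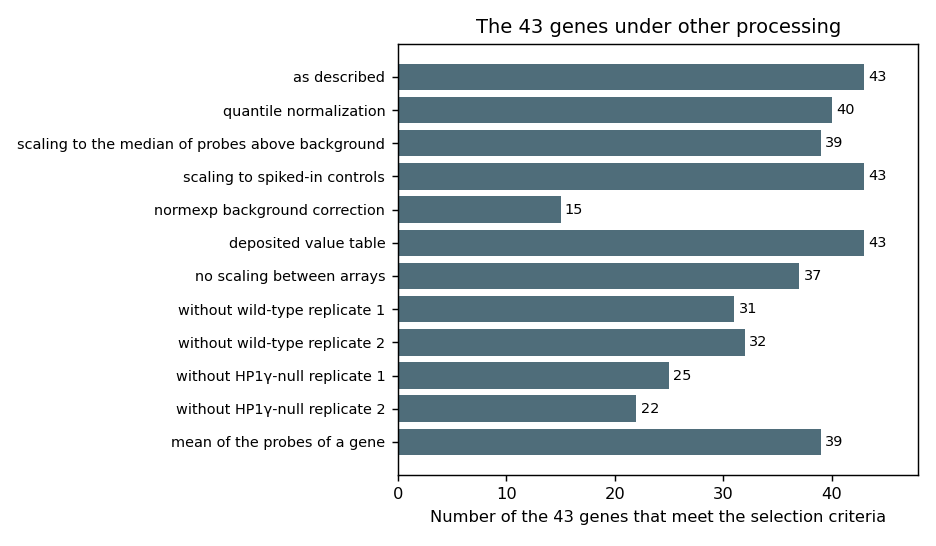
Bars give the number of the 43 genes (horizontal axis, from 0) that met the selection criteria under each way of processing. All 43 met them with spiked-in controls and with the deposited value table, which holds the same intensities rounded. With normexp correction 15 did, and 22 and 25 did when null pool 2 or null pool 1 was left out.

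The 33 promoter windows available for the 43 genes held fewer CpG dinucleotides, by median, than those of all measured genes. The median was 16 in the 33 windows available and 21 in 9086 windows of measured genes, and 8 of the 33 (24.2%) held under 5, as did 7.61% of all. The low counts came mostly from the blood and immune genes, with a median of 4.5 over 10 windows. Marco had 0, Hbb-bt 1 and Il1b, Cd36 and P2ry10b 3 each. The 6 vessel genes had a median of 14, Tek having 3 and Ptprm 43. The 17 windows of the other groups had a median of 22, close to that of all measured genes. CCAAT was present in 18 of the 33 windows (54.5%, against 38.9% of all), AGGAAG in 14 (42.4% against 33.4%), CACCC in 23 (69.7% against 62.3%), GGGCGG in 20 (60.6% against 65.0%), TATAAA in 3 (9.09% against 7.29%) and AGATAA in 1 (3.03% against 6.25%). These are counts of letters in a window chosen by position, with no test.

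**Figure D5:**
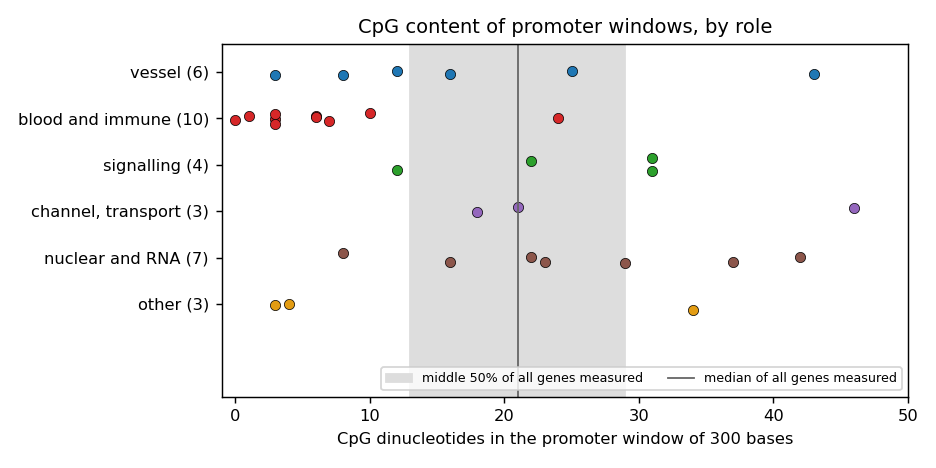
Each point is the promoter window of 1 gene, placed by its number of CpG dinucleotides in 300 bases (horizontal axis) and grouped by role, with the grey band spanning the middle 50% of 9086 measured genes and a line at their median of 21. Windows of blood and immune genes gather at the left, with a median of 4.5.

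The 43 genes lay on 17 chromosomes, with 6 on chromosome 11, which carries 8.44% of measured genes. Chromosomes 2 and 7, with 7.88% and 7.54% of measured genes, held 5 each. None lay on chromosome 6, which carries Cbx3 and 572 of the measured genes (5.06%), nor on chromosomes 9, 14 or Y. The genes set aside by name, Cbx3 among them, are not in these counts. Having none of the 43 therefore does not mean that no gene of a chromosome met the criteria. Clec10a and Asgr2 were the closest pair, and Zmynd15 lay 12 protein-coding genes from Clec10a.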

How the data were processed

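The samples were 4 RNA pools, assigned to genotype by their labels. Labelling with Cy3 began from 4 ng of RNA, per the labels' protocols. The deposited files hold intensity values per spot, made by the authors with Agilent Feature Extraction 10.7.3.1 per the submitters' processing notes, with no scaling between arrays. The deposited value table holds the same processed intensity rounded to 3 digits. The headers give 1 slide and 1 scan for the 4 arrays, so neither separates the genotypes.

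Computed here were log2 processed signals minus each array's 75th percentile over 43379 spots that are not controls. Spots marked as outliers were left out and spots of a probe averaged, leaving 41153 probes. Accessions, without versions, were matched to RefSeq names of GRCm38.p6, which named 26877 probes (18322 genes), and the probe with the highest mean stood for a gene. A probe was well above background where the scanner software marked most of its spots so. Probe coordinates, which follow a different assembly, are not given.

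The fit over all probes ran in R 4.3.3 with limma 3.58.1 (two-sided, Benjamini-Hochberg adjustment). It was also run on simulated data with the same spread for every probe, where large changes were recovered more often than small ones. That run does not give the error rate of the fit on these arrays. Tables were made with Python 3.11.15 and pandas 2.3.3. Alternatives were quantile normalization, other scaling (the median of measured probes, 7 spiked-in probes, none), normexp with an offset of 50, the value table, other probe and filter rules, a replicate block, and leaving out each array. Normexp was planned on the mean signal, a column the files at hand do not list, and was run on the median signal instead. The alternative without scaling and the list counts without null pool 2 were chosen after seeing the data.

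The genes and lists were chosen with earlier results of these data known. Named with values are the 20 genes with the largest difference, the 10 with the widest gap between genotypes, every one of the 43 on a list, and the 3 genes on each side of the threshold. Defining cell type markers are given mostly as sums and counts. Other names were taken for their role after the values were seen, as was the grouping by role. The series' design text calls the pools independent, and p-values measure the spread between them. With 2 arrays per genotype, precision is limited throughout.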

Additional observations from a re-analysis of the deposited data

How the results depend on the processing

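Pools of the same number showed deviations from their genotype means that correlated at 0.07 over the probes tested, so the numbers are not shown to pair the samples. With the replicate number as a block, the limma fit called 13 probes in place of 2. The same count was 7 with a trend in eBayes, 1 with probes well above background on all 4 arrays, 0 with no filter on dim probes (1474 at an unadjusted p under 0.05), 133 with spiked-in scaling and 0 without any single array (607 to 5643 at an unadjusted p under 0.05).

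The count of genes meeting the criteria, 43 as described, was 794 with spiked-in scaling and 15 with normexp. It was 69 with signal well above background asked on both arrays of 1 genotype alone, and 161 with no such filter. At a mean difference of at most -1.5 it was 3, and at -0.5 it was 580. With 1 array left out it ranged from 70 to 244. Of the 43 genes themselves, 15 met the criteria again with normexp and 22 to 32 with 1 array left out. Their median difference moved beyond the replicate SD of 0.46 with spiked-in scaling alone (-1.66), and with 1 array left out it ranged from -1.005 to -1.33. No gene changed sign under any alternative, which the selection fixes in advance where 1 array was left out. The spot signals near background on null pool 1 limit what can be said of the dim genes.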
